A study of Mus musculus with 30 samples.

Results

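Polycomb repressive complex 2 (PRC2) methylates histone H3 to give H3K27me3, a mark of silenced genes, and the levels of its subunits were followed here in primordial germ cells of mouse embryos, from which eggs and sperm later form. The members were the 10 genes Ezh1, Ezh2, Eed, Suz12, Rbbp4, Rbbp7, Jarid2, Mtf2, Phf19 and Aebp2, taken by gene symbol and read from the probe set with the highest mean over all arrays. All 10 were measured among 19937 genes with a probe set, and all 10 were among the 15180 genes tested. The germ cells were sorted by GFP from gonads of embryos with the Oct4(deltaPE)-GFP reporter on a mixed 129/Sv and C57BL6J background, and each Affymetrix array was hybridized with PCR-amplified RNA from 500 cells. Rnf2delta embryos (labelled Ring1+;Rnf2delta) were sampled at E11.5 and E12.5 in each sex, and control embryos (Ring1+;Rnf2+) at E11.5, E12.5 and E13.5 in each sex. Each of these 10 groups held 3 arrays, and all of them were labelled Ring1+. The labels name neither the Cre driver nor the age at deletion, and they leave unsaid whether arrays of the same group stem from different embryos or litters. A p-value here thus rests on a spread between samples that could be technical.

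PRC2 is built on a catalytic subunit, EZH1 or EZH2, held with EED and SUZ12 and with RBBP4 or RBBP7. Accessory subunits define alternative forms. One form carries a Polycomb-like protein such as MTF2 or PHF19, which binds CpG-rich DNA, and the other carries JARID2 and AEBP2, which bind nucleosomes with ubiquitylated H2A. That ubiquitin is placed by Polycomb repressive complex 1 (PRC1), whose ligases are RNF2 and RING1. Mouse germ cells of these days are known for high global H3K27me3, and over the same period female germ cells begin meiosis while male germ cells turn towards spermatogenesis. The series addressed how PRC1 times that step in females.

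Of the marker lists measured, that of the labelled cell type had the highest summed signal. All 10 germ cell markers lay above the 40th percentile of their arrays in every group, and the log2 of their summed signal was 10.6 to 11.3. By group, 5 to 10 of 10 supporting cell markers and 2 to 5 of 7 interstitial markers also lay above it on all 3 arrays. So did 1 to 3 of 6 endothelial and 1 to 3 of 6 macrophage markers. The percentile alone thus does not set the cell type apart. The summed level was 5.80 to 6.54 for 10 supporting cell markers, 5.20 to 5.48 for 7 interstitial markers, 6.50 to 7.63 for 6 endothelial markers and 4.66 to 5.53 for 6 macrophage markers, of which 3 lay below that percentile on all 30 arrays. Rnf2delta E12.5 male replicate 3 stood apart by the embryonic globin Hbb-y, with a log2 level of 9.71 against 1.56 to 3.22 on the other 29 arrays. The 6 E12.5 female arrays correlated less with their own groups, at 0.964 to 0.978 across genes against 0.983 to 0.990 for the other 24. These 2 groups were therefore given lower weights, 0.595 for Rnf2delta and 0.444 for control, where the other groups had 0.890 to 1.37. Rnf2 itself fell in the mean of the 4 genotype differences by 0.64 on the log2 scale (limma adjusted p = 3.5e-05). Among the single comparisons it passed the threshold in E12.5 males, with 4.09, 4.45 and 4.46 on the Rnf2delta arrays against 5.22, 5.68 and 5.21 on the control arrays. Its other differences were -0.61 in E11.5 females, -0.31 in E11.5 males and -0.63 in E12.5 females, with adjusted p of 0.086, 0.48 and 0.27. Whether its probe set lies in the deleted part is not stated, so its level may say nothing of the genotype. Ring1, the paralogue, gave a mean difference of -0.13 (adjusted p = 0.32).

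Over the 10 groups, the members separated into subunits with steady and with variable levels. The range of the group means, highest minus lowest on the log2 scale, was 0.32 for Ezh2, 0.41 for Rbbp4 and 0.46 for Aebp2, against a median of 0.59 over all genes tested. Ezh2 and Rbbp4 varied less than most genes, at the 12.7th and 25.9th percentile of that range. Phf19 and Rbbp7 had ranges of 2.32 and 1.85, at the 99.2nd and 97.6th percentile. Between them lay Suz12 (0.80), Eed (0.78), Jarid2 (0.86), Ezh1 (0.86) and Mtf2 (0.95). These levels come from separate probe sets and are not set against each other, and in bulk samples fewer cells of a type and less RNA per cell cannot be told apart.

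**Figure D1:**
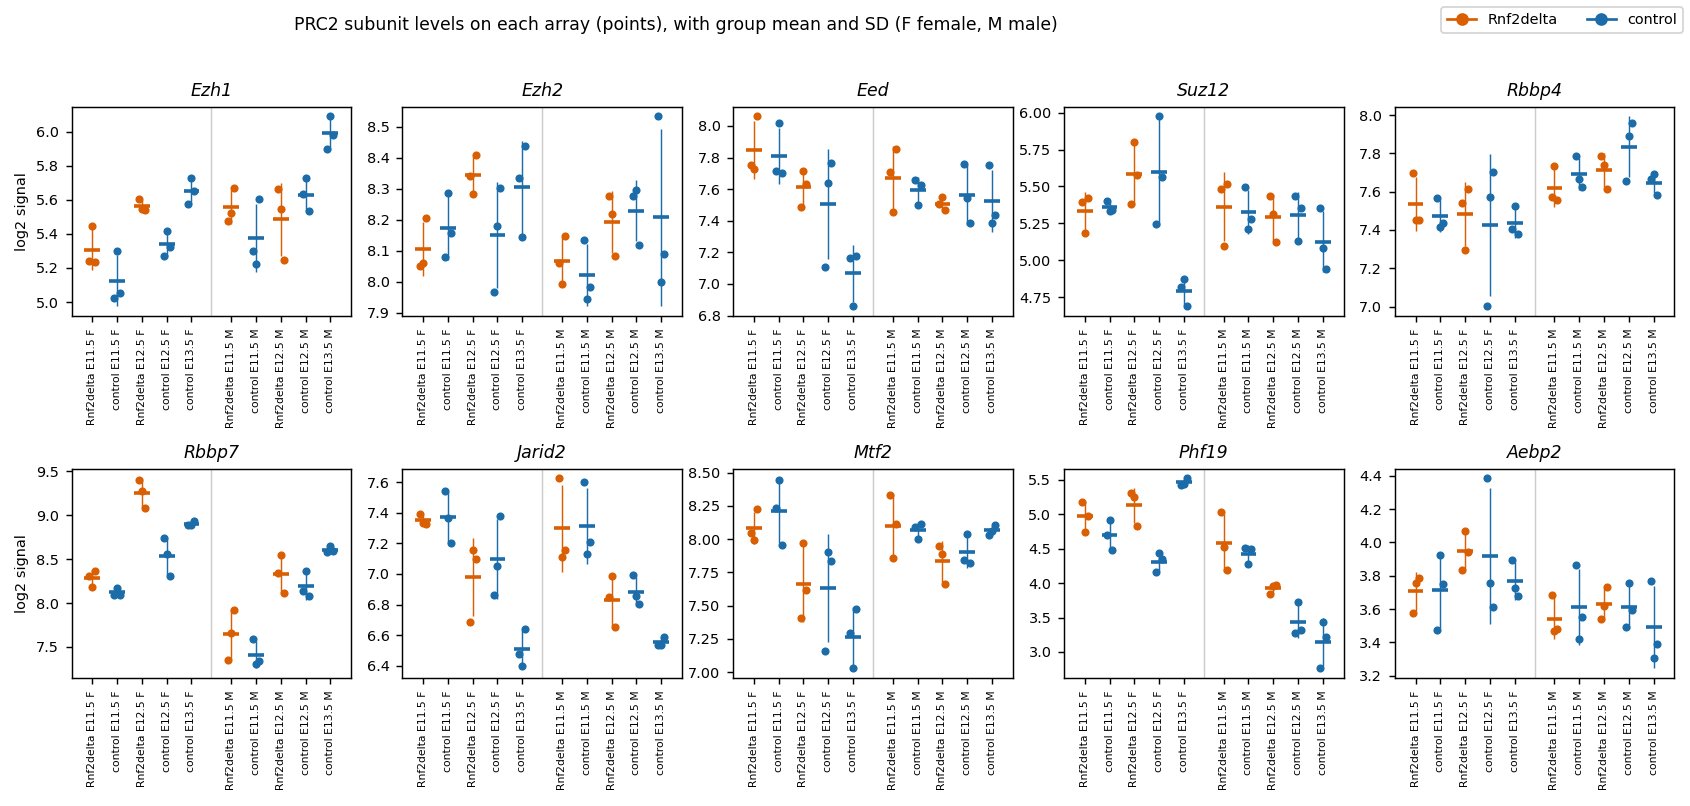
Log2 signal of the 10 PRC2 subunits on each of 30 arrays (points), with the mean (bar) and SD (line) of each group of 3; groups run along the x axis, females left and males right of the grey line, Rnf2delta in orange and control in blue. Phf19 reads 5.43 to 5.52 in control E13.5 females and 2.76 to 3.44 in control E13.5 males, while the group means of Ezh2 stay within 0.32 of each other.

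The promoters of the most variable subunits, Phf19 and Rbbp7, and of the steadier paralogue Rbbp4 are shown as examples. Whether their sequences bear on the difference in levels was not tested. Each is the 250 bases upstream of the start in RefSeq (GRCm38.p6), read 5′ to 3′ on the gene's own strand. Phf19 lies at chr2:34913977-34914226 on the minus strand, Rbbp7 at chrX:162760122-162760371 on the plus strand and Rbbp4 at chr4:129335371-129335620 on the minus strand. Capitals mark matches to 4 motifs searched on both strands, namely E2F (TTTNNCGC), E-box (CACGTG), STRA8 (CNCCTCAG) and GC box (GGGCGG), where adjacent GC boxes may share a base.
Phf19: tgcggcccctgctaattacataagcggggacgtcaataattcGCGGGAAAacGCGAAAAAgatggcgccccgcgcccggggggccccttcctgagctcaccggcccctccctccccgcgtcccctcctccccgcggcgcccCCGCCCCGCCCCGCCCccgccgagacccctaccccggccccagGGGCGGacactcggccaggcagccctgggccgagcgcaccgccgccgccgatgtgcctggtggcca
Rbbp7: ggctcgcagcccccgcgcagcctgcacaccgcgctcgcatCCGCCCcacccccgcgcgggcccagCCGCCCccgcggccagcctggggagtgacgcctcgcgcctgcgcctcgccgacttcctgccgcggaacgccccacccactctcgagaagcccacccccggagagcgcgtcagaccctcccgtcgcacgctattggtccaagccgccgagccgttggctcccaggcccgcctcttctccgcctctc
Rbbp4: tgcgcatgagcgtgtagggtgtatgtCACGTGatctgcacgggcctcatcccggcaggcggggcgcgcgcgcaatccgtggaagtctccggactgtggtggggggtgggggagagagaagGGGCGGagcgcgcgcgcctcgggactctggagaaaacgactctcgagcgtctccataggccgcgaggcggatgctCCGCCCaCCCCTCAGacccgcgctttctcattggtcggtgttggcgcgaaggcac
The E2F letters, the pattern read by the factors of S phase entry, stood 2 times before Phf19 and were in 4.3% of all 32851 promoters of the same length. Rbbp4 held 1 E-box, present in 6.0% of all promoters, and 1 match to the letters bound by STRA8, the meiotic gatekeeper, present in 6.4%. Rbbp7 held 2 GC boxes and none of the other 3 motifs, and 32.7% of all promoters held a GC box. Across the 14 promoters of the 10 members, an E2F match was found in 2 (Suz12 and Phf19), an E-box and a STRA8 match in 1 each, and a GC box in 9. Most were CpG-rich, with a median ratio of observed to expected CpG of 0.88 against 0.37 over all promoters and a median GC content of 64.2% against 52.4%. These matches describe letters in a window and not bound sites, and the shares over all promoters were not matched for base composition.

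Of the PRC2 subunits, Phf19 and Rbbp7 were higher in Rnf2delta than in control germ cells in the mean over stages and sexes, and the other 8 did not pass. None of the 10 passed in any single genotype comparison, where 1.01% of all genes passed in E11.5 females, 2.01% in E11.5 males, 1.55% in E12.5 females and 1.17% in E12.5 males. At an unadjusted p under 0.05 there were 0 members in either sex at E11.5, 2 in E12.5 females (Rbbp7 and Phf19) and 1 in E12.5 males (Phf19). In the mean of the 4 differences, 2 of 10 rose and 0 fell, where 9.26% of all genes passed, 7.46% upward. The median over the members was 0.02 on the log2 scale, against 0.01 over all genes.

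Rbbp7, a histone-binding WD40 protein shared with other chromatin complexes, had log2 levels of 9.41, 9.28 and 9.08 on the Rnf2delta E12.5 female arrays, against 8.74, 8.56 and 8.31 on the control E12.5 female arrays. All 3 Rnf2delta arrays were above all 3 control arrays. The same lack of overlap held for 3 of 10 members (Ezh1, Rbbp7 and Phf19) and for 17.7% of all genes in one direction or the other. The difference of 0.72 ± 0.19 (SE, n = 3 each) missed the threshold (limma adjusted p = 0.054, with a range of 0.0014 to 0.28 over its alternatives). It passed with equal weights (0.0014), 1 weight per array (0.035), the mean of all probe sets (0.033) or a trended robust prior (0.025), without control replicate 1 (0.047) or without Rnf2delta replicate 3 (0.037). In the remaining groups the Rnf2delta minus control difference was smaller, 0.16 in E11.5 females, 0.24 in E11.5 males and 0.14 in E12.5 males. The mean of the 4 was 0.32 ± 0.07 (adjusted p = 0.0051), which kept its call in each alternative run. The second, dimmer Rbbp7 probe set gave 0.36 (adjusted p = 0.0013). Rbbp7 is X-linked, and of 473 X-linked genes 4.65% rose in Rnf2delta E12.5 females and 11.8% in the mean, against 1.24% and 7.32% of the other genes. Whether the genotype difference itself differed by sex at E12.5 was tested, and the interaction of 0.58 did not pass (adjusted p = 0.48). No member passed in any of the 4 genotype interactions, where the share of all genes was 0.00659% for sex at E11.5, 0.0132% for sex at E12.5, 0.0264% for stage in females and 0% for stage in males. At an unadjusted p under 0.05, 1 member passed for sex at E12.5 and 1 for stage in females, Rbbp7 both times.

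Phf19, a Polycomb-like protein that reads H3K36 methylation through its Tudor domain, was 5.31, 5.24 and 4.83 in Rnf2delta E12.5 females and 4.15, 4.43 and 4.35 in control E12.5 females. Its levels in E12.5 males were 3.84, 3.96 and 3.98 on the Rnf2delta arrays and 3.28, 3.72 and 3.32 on the control arrays. The groups did not overlap in either sex at E12.5, and they did at E11.5 in both sexes. In E12.5 males Phf19 was the 1 member without overlap, against 14.6% of all genes. The differences of 0.82 ± 0.27 in females and 0.48 ± 0.19 in males missed the threshold (limma adjusted p = 0.14 and 0.34), and the female one passed with equal weights (0.0051). In data simulated with each group's own spread, equal weights made 57.2% of E12.5 female genotype calls false, against 4.11% with group weights. For the E11.5 female genotype comparison the shares were 2.68% and 2.34%. Group weights made the larger share for control females at E13.5 against E11.5 (1.68% against 0%). They also did for control E13.5 females against males (9.35% against 2.70%). The simulation gave each group its own spread, as group weights assume, so it cannot decide which weights suit the real arrays. Over both stages and sexes the mean difference was 0.43 ± 0.10 (adjusted p = 0.0055), kept in each alternative run. Hbb-y was high on the third Rnf2delta E12.5 male array, whose Phf19 level of 3.98 lay beside those of the other two. In the list of endothelial markers, 0 of 4 genes tested rose in the mean and 1 fell (Pecam1, -0.49, adjusted p = 1.8e-05). In each E12.5 group, 1 of the 6 genes measured lay above the 40th percentile on all 3 arrays. A sum over these markers may thus follow few genes and need not give endothelial content. The log2 of their summed signal over 6 genes was 6.60 to 6.76 in Rnf2delta E12.5 females and 6.93 to 7.32 in control E12.5 females, and 6.50 to 6.79 in Rnf2delta E12.5 males and 7.12 to 7.21 in control E12.5 males. At E11.5 it was 6.76 to 7.05 in Rnf2delta females and 7.07 to 7.34 in control females, and 6.99 to 7.17 in Rnf2delta males and 7.35 to 7.63 in control males. Germ cell markers had a median difference of -0.34 in E12.5 females, where 0 of 10 passed, and in the mean 1 of 10 rose (Ddx4, 0.60) and 1 fell (Dppa3, -0.29). The part of either list in the results for Rbbp7 and Phf19 was not tested.

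The other 8 subunits gave intervals that bound any mean genotype difference. The widest departure was Ezh1, at 0.11 with a 95% interval of -0.03 to 0.25. Ezh2 gave 0.03 (-0.11 to 0.18), Eed 0.04 (-0.12 to 0.21) and Suz12 -0.00 (-0.17 to 0.16). Rbbp4, the paralogue of Rbbp7, gave -0.02 (-0.16 to 0.12). The accessory subunits gave -0.05 for Jarid2 (-0.22 to 0.12), -0.03 for Mtf2 (-0.20 to 0.14) and -0.01 for Aebp2 (-0.18 to 0.16). A mean change of 0.25 or more on the log2 scale was thus outside the main-fit interval of each of these 8. The Ezh1 estimate itself reached 0.19 in 1 alternative run, so its bound depends on the fit. Single comparisons were less precise, with an interval for Suz12 of -0.44 to 0.42 in E12.5 females.

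**Figure D2:**
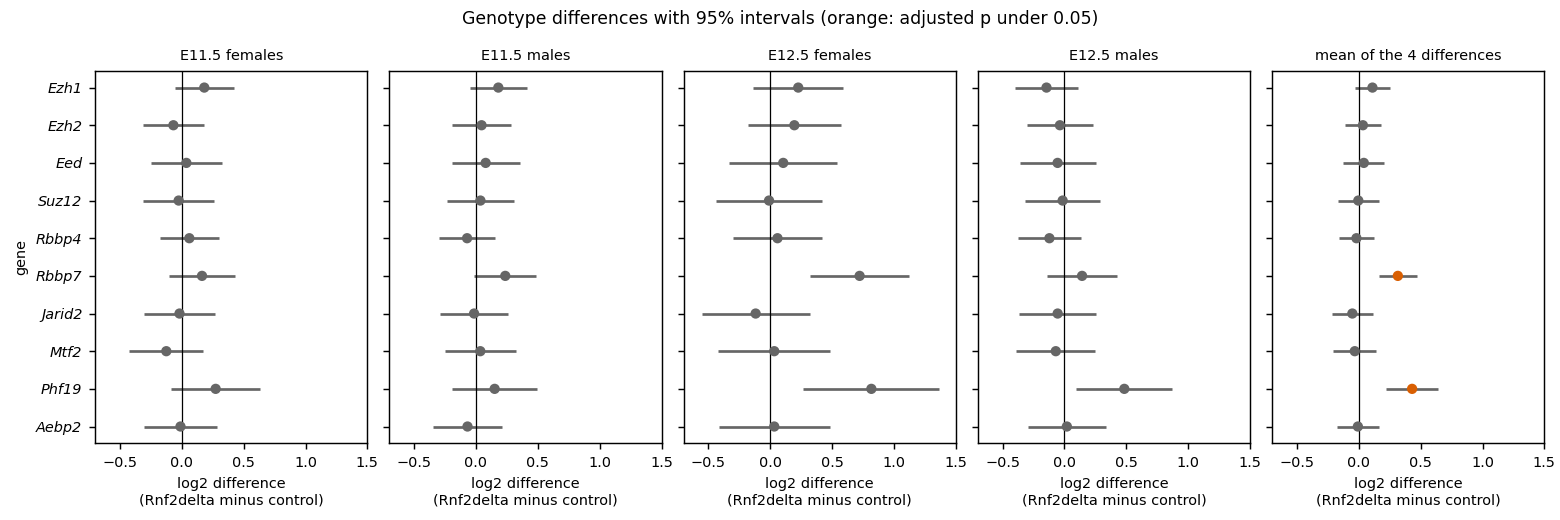
Rnf2delta minus control log2 difference (x axis) of each PRC2 subunit (rows) with its 95% interval (line), in the 4 single comparisons and in their mean, with limma adjusted p under 0.05 in orange. Rbbp7 at 0.32 and Phf19 at 0.43 are the members that pass in the mean, and none passes in a single comparison.

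Around PRC2, readers and neighbours of its mark were measured too. Cbx8, a chromodomain subunit of canonical PRC1 that reads H3K27me3, rose in all 4 genotype comparisons, by 1.27 in E11.5 females, 1.61 in E11.5 males, 1.23 in E12.5 females and 1.60 in E12.5 males (limma adjusted p = 2.4e-05, 4.6e-07, 0.0069 and 2.2e-06). In the mean, 2 of 3 readers tested rose (Cbx8 and Cbx2) and 0 fell, where 7.46% of all genes rose and 1.8% fell, as for the lists that follow. Of the 4 H3K36 methyltransferases tested, 1 rose in the mean, Nsd1, by 0.70 (adjusted p = 9.7e-06). The H3K27 demethylase Kdm6b rose by 0.32 (adjusted p = 0.0081), while Kdm6a and Uty did not pass. None of 5 further PRC2 accessory subunits and inhibitors passed, the nearest being the inhibitor Ezhip at 0.27 (adjusted p = 0.074).

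From E11.5 to E13.5 the subunits of PRC2 changed in control germ cells of both sexes, with members moving both ways in each sex. In control females at E13.5 against E11.5, 3 of 10 members rose (Ezh1, Rbbp7 and Phf19) and 4 fell (Eed, Suz12, Jarid2 and Mtf2). Among all genes 30.5% passed there, 16.4% upward and 14.1% downward. In control males 2 rose (Ezh1 and Rbbp7) and 2 fell (Jarid2 and Phf19), where 18.8% of all genes passed, 9.24% upward and 9.6% downward. The arrays of both stages did not overlap for 7 members in females and 4 in males, against 41.2% and 33.8% of all genes. The median over the members was 0.01 in females and -0.06 in males, against -0.00 and -0.01 over all genes. Each of these 11 calls kept its place in each alternative run with the probe set used, and Eed lost its call on its dimmer probe set. Markers moved with stage too. Of 10 germ cell markers 2 rose and 5 fell in females, and 3 rose and 2 fell in males. The summed level of 6 macrophage markers was 5.17 to 5.49 at E11.5, 4.90 to 5.15 at E12.5 and 4.66 to 4.82 at E13.5 in control females. In control males it was 5.17 to 5.53, 4.66 to 4.71 and 4.70 to 4.74. That of 6 endothelial markers in control males was 7.35 to 7.63, 7.12 to 7.21 and 6.52 to 6.67. In control females it overlapped between adjacent stages, at 7.07 to 7.34, 6.93 to 7.32 and 6.83 to 7.13. In each control group at E12.5 and E13.5, 1 of the 6 endothelial genes lay above the 40th percentile on all 3 arrays. The part of these markers in the stage results was not tested.

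By single steps, control females showed no call at E12.5 against E11.5, where 10.2% of all genes passed and 2 members had an unadjusted p under 0.05, and 3 calls at E13.5 against E12.5 (Suz12, Jarid2 and Phf19), where 14% of all genes passed. Control males showed 3 calls at E12.5 against E11.5 (Rbbp7, Jarid2 and Phf19; 7.35% of all genes) and none at E13.5 against E12.5 (2.6% of all genes, and 3 members at an unadjusted p under 0.05). Rnf2delta germ cells at E12.5 against E11.5 gave 1 call in each sex, Rbbp7, where 15.8% of all genes passed in females and 0.731% in males. Whether single steps differed between the sexes was not tested.

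Ezh1, the catalytic subunit associated with non-dividing cells, was higher at E13.5 in both sexes. Its log2 levels in control females were 5.03, 5.30 and 5.05 at E11.5, 5.27, 5.42 and 5.32 at E12.5 and 5.57, 5.73 and 5.65 at E13.5. Control males read 5.30, 5.23 and 5.60 at E11.5, 5.63, 5.73 and 5.53 at E12.5 and 5.90, 6.09 and 5.98 at E13.5. The E13.5 arrays lay above the E11.5 arrays without overlap in each sex. E13.5 minus E11.5 was 0.52 ± 0.12 in females (limma adjusted p = 0.0011) and 0.61 ± 0.11 in males (adjusted p = 1.9e-04). Ezh2, the main methyltransferase of dividing cells, passed in no comparison, with E13.5 minus E11.5 at 0.13 in females (95% interval -0.12 to 0.39) and 0.19 in males (-0.05 to 0.42).

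The core partners Eed and Suz12 were lower in E13.5 females. Eed, which binds H3K27me3 and stimulates the enzyme, read 7.71, 8.02 and 7.70 at E11.5, 7.11, 7.64 and 7.77 at E12.5 and 7.16, 6.86 and 7.18 at E13.5 in control females. In control males it was 7.50 to 7.66 at E11.5, 7.38 to 7.76 at E12.5 and 7.39 to 7.75 at E13.5, with every pair of stages overlapping. It fell by 0.74 ± 0.14 in females (E13.5 minus E11.5, limma adjusted p = 1.7e-04) and was -0.07 ± 0.13 in males (0.78). Eed's second probe set, above the 40th percentile on 11 of 30 arrays, gave 0.11 in females (adjusted p = 0.63). Suz12, which anchors the complex, read 5.40, 5.34 and 5.34 at E11.5, 5.25, 5.98 and 5.57 at E12.5 and 4.82, 4.87 and 4.69 at E13.5 in control females. All E13.5 female arrays lay below those of both earlier stages. The fall was 0.56 ± 0.14 against E11.5 (adjusted p = 0.0027) and 0.80 ± 0.19 against E12.5 (adjusted p = 0.0039). The second lost its call without control E12.5 female replicate 2 (0.083). In control males Suz12 gave -0.20 at E13.5 against E11.5 (adjusted p = 0.32). Control E13.5 females minus males gave -0.33 (0.077), which passed in 2 of 17 settings. The female minus male difference in stage change of Suz12 was -0.36 and did not pass (0.27).

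Rbbp7 rose with stage in both sexes while its paralogue Rbbp4 passed nowhere in the main fit. In control females Rbbp7 read 8.10, 8.18 and 8.09 at E11.5, 8.74, 8.56 and 8.31 at E12.5 and 8.88, 8.89 and 8.93 at E13.5. In control males it read 7.59, 7.30 and 7.34, then 8.13, 8.36 and 8.08, then 8.58, 8.64 and 8.59. The 3 stages did not overlap in either sex. E13.5 minus E11.5 was 0.78 ± 0.13 in females (limma adjusted p = 3.0e-05) and 1.19 ± 0.12 in males (adjusted p = 4.4e-08). Rnf2delta cells showed the step by E12.5, with 0.97 ± 0.15 in females (adjusted p = 7.1e-05) and 0.69 ± 0.14 in males (adjusted p = 0.0096). The male call was lost without E11.5 Rnf2delta male replicate 1 (0.16) or without E12.5 Rnf2delta male replicate 1 (0.10) or 2 (0.18), with the compared groups alone (0.16) and with the mean level of low-numbered probe sets that carry no gene name as a covariate (0.072). Of 473 X-linked genes, 30.4% rose in control females at E13.5 against E11.5 and 11.4% in control males, against 16% and 9.17% of the other genes. Rbbp4, by contrast, differed by -0.04 in females (95% interval -0.28 to 0.21) and by -0.04 in males (-0.27 to 0.18) between E13.5 and E11.5. Every male group mean of Rbbp4 lay above every female one. At E12.5 its control female minus male difference was -0.41 (limma adjusted p = 0.092), which passed with equal weights (0.037).

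Of the subunits of the form with JARID2 and AEBP2, Jarid2 fell in both sexes. In stem cells JARID2 is known to recruit PRC2. It read 7.54, 7.36 and 7.20 at E11.5, 6.86, 7.05 and 7.38 at E12.5 and 6.48, 6.40 and 6.64 at E13.5 in control females. Control males read 7.60, 7.13 and 7.21, then 6.99, 6.86 and 6.80, then 6.53, 6.54 and 6.59. Every E13.5 array lay below every earlier array of its sex. The fall from E11.5 was 0.86 ± 0.14 in females (limma adjusted p = 2.7e-05) and 0.76 ± 0.13 in males (adjusted p = 1.3e-04). Steps between adjacent stages were less firm, with -0.43 in males at E12.5 against E11.5 (adjusted p = 0.048) and -0.59 in females at E13.5 against E12.5 (adjusted p = 0.034). The male step lost its call without E11.5 replicate 1 (0.24) or 3 (0.073) or E12.5 replicate 1 (0.072), 2 (0.16) or 3 (0.11), with equal weights (0.15), 1 weight per array (0.053), the compared groups alone (0.11) or no filter (0.058), and in 3 further settings (0.051 to 0.11). The female step lost it without E12.5 replicate 2 (0.11) or 3 (0.26) or E13.5 replicate 1 (0.061) or 2 (0.089), with the compared groups alone (0.063), and with the covariate of probe sets that carry no gene name (0.099). Aebp2, a zinc finger partner, passed nowhere, with E13.5 minus E11.5 at 0.05 in females (95% interval -0.25 to 0.35) and -0.12 in males (-0.40 to 0.16).

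The Polycomb-like pair, Mtf2 and Phf19, changed differently in the sexes. Mtf2 read 8.24, 8.44 and 7.96 at E11.5, 7.16, 7.90 and 7.83 at E12.5 and 7.29, 7.03 and 7.47 at E13.5 in control females. In control males it read 8.09, 8.0 and 8.11, then 7.85, 8.04 and 7.82, then 8.03, 8.06 and 8.10. The E13.5 females lay below all E11.5 females and below all E13.5 males, and the male stages overlapped. Mtf2 fell by 0.95 ± 0.15 in females (limma adjusted p = 1.2e-05) and gave -0.00 ± 0.14 in males (1.0).

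Phf19 read 4.70, 4.91 and 4.48 at E11.5, 4.15, 4.43 and 4.35 at E12.5 and 5.43, 5.44 and 5.52 at E13.5 in control females. In control males it read 4.50, 4.28 and 4.50, then 3.28, 3.72 and 3.32, then 2.76, 3.44 and 3.22. The female arrays were lowest at E12.5 and highest at E13.5, while the male arrays of both later stages lay below those of E11.5. E13.5 minus E11.5 was 0.77 ± 0.18 in females (adjusted p = 0.0014) and -1.29 ± 0.17 in males (adjusted p = 2.2e-06). The step from E12.5 to E13.5 in females was 1.15 ± 0.24 (adjusted p = 0.0014), and that from E11.5 to E12.5 in males was -0.99 ± 0.17 (adjusted p = 6.7e-04). In Rnf2delta germ cells the E12.5 minus E11.5 difference was 0.16 in females (0.69) and -0.65 in males (0.091). The male one passed with 1 weight per array (0.034) and without E11.5 Rnf2delta male replicate 3 (0.018) or E12.5 Rnf2delta male replicate 3 (0.049).

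The difference in stage change between the sexes was tested directly, as the E13.5 minus E11.5 change in females minus that in males. It passed for 3 of 10 members, where 10.3% of all genes passed. Phf19 gave 2.06 ± 0.25 (limma adjusted p = 2.6e-06) and Mtf2 -0.94 ± 0.20 (adjusted p = 0.0026), and both kept their calls in each alternative run. Eed gave -0.68 ± 0.19 (adjusted p = 0.024), a call lost with equal weights (0.072), with the mean of all probe sets (0.28), on the dimmer probe set, where it gave 0.063 (0.91), and without E11.5 female replicate 2 (0.10), E11.5 male replicate 2 (0.056), E13.5 female replicate 2 (0.080) or E13.5 male replicate 1 (0.078). The E11.5 and E13.5 comparisons within a sex share no arrays with those of the other sex.

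**Figure D3:**
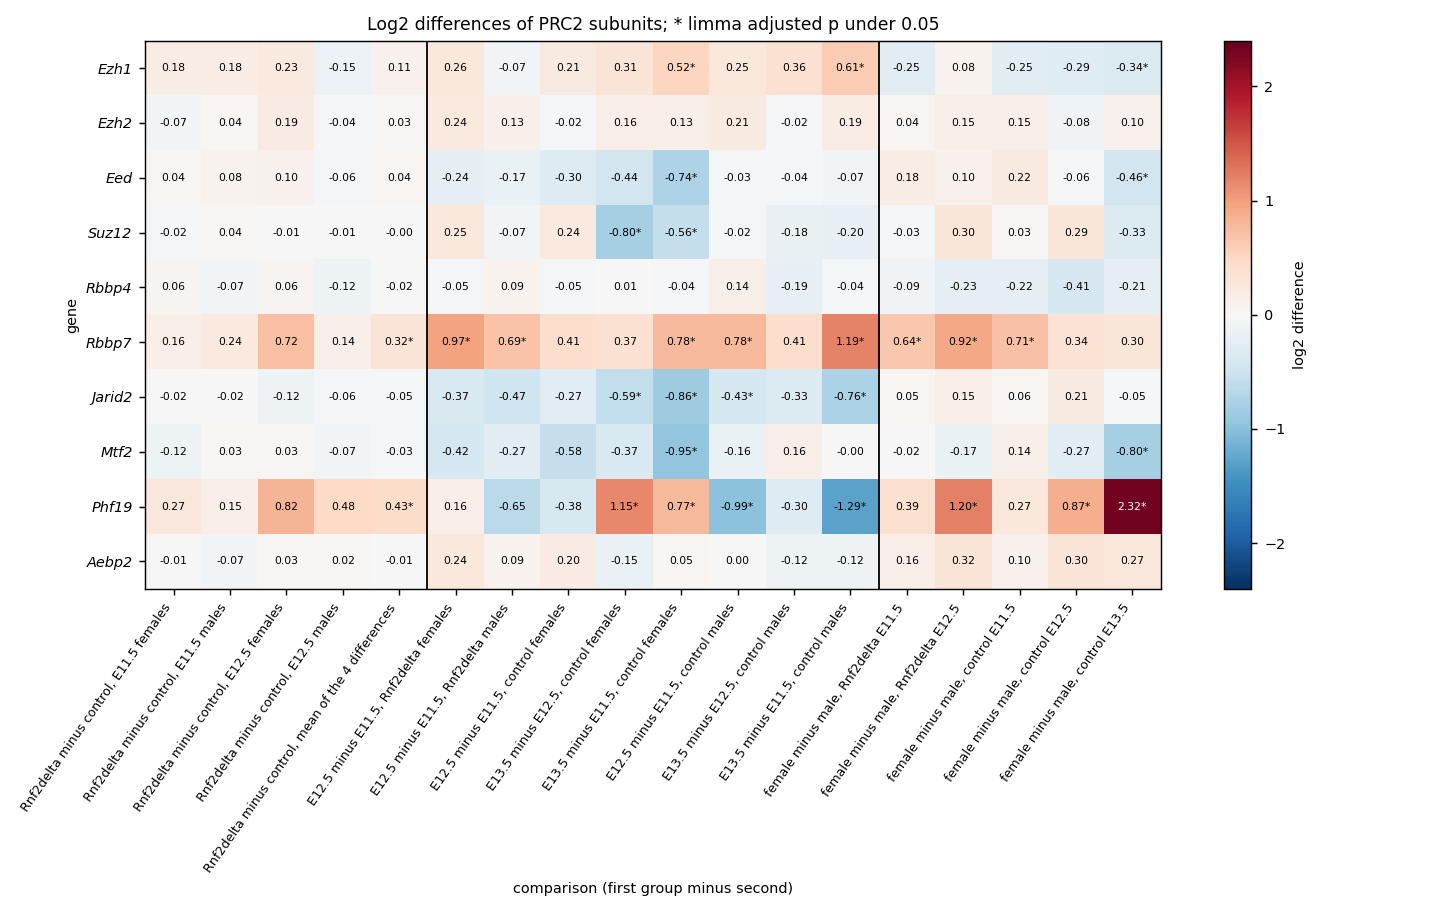
Log2 differences of the 10 PRC2 subunits (rows) in 18 comparisons (columns, named with the group on top of the difference first), coloured from blue (lower) to red (higher), with a star where limma adjusted p is under 0.05. The row of Phf19 turns from -1.29 in E13.5 against E11.5 control males to 2.32 in E13.5 females against males, and the rows of Ezh2, Rbbp4 and Aebp2 hold no star.

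In control E13.5 germ cells 1 of 10 members was higher in females (Phf19) and 3 were lower (Mtf2, Eed and Ezh1), where 22.5% of all genes passed, 11% upward and 1752 genes downward. Phf19 was 2.32 ± 0.17 higher in females (limma adjusted p = 5.5e-11), and Mtf2 was lower by 0.80 ± 0.14 (difference -0.80, adjusted p = 9.6e-05). Eed gave -0.46 (adjusted p = 0.014) and lost its call without female replicate 2 (0.099) or male replicate 1 (0.10), with the mean of all probe sets (0.18) and on its dimmer probe set, where it gave 0.012 (0.97). Ezh1 gave -0.34 (adjusted p = 0.030) and lost its call without E13.5 male replicate 2 (0.12) or 3 (0.067) or female replicate 1 (0.10) or 3 (0.074), with equal weights (0.061), with the compared groups alone (0.065) and with quantile normalization (0.10). Markers differed between the sexes at E13.5 as well. The summed level was 10.8 to 10.9 in control females and 11.2 to 11.3 in control males for germ cell markers, 5.84 to 6.05 and 6.06 to 6.31 for supporting cell markers, and 6.83 to 7.13 and 6.52 to 6.67 for endothelial markers, without overlap in any of the 3. Of 10 germ cell markers, 2 were higher in females and 4 lower, and the part of these markers in the sex results was not tested.

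At E12.5 the sex difference of Phf19 was already present in both genotypes. It was 1.20 ± 0.23 in Rnf2delta (limma adjusted p = 8.0e-04) and 0.87 ± 0.24 in controls (adjusted p = 0.015). The control call was lost without E12.5 male replicate 1 (0.051) or E12.5 female replicate 2 (0.099) or 3 (0.070). The members called at E12.5 were Phf19 and Rbbp7 in Rnf2delta, where 9.89% of all genes passed, and Phf19 in controls, where 1750 of all 15180 genes passed against 1501 in Rnf2delta. Upward calls alone were 3.76% of all genes in Rnf2delta and 2.07% in controls. At E11.5 Rbbp7 was the 1 member called, where 0.817% of all genes passed in Rnf2delta and 0.58% in controls.

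Rbbp7 was higher in females than in males, and it is X-linked. Its arrays at E11.5 read 8.31, 8.18 and 8.37 in Rnf2delta females and 7.35, 7.66 and 7.92 in Rnf2delta males, a difference of 0.64 ± 0.12 (limma adjusted p = 0.0069). E11.5 controls read 8.10, 8.18 and 8.09 in females and 7.59, 7.30 and 7.34 in males, a difference of 0.71 ± 0.13 (adjusted p = 0.0053). Every female array lay above every male array in both genotypes. The Rnf2delta call was lost without male replicate 1 (0.051) and with the compared groups alone (0.16), and the control call without female replicate 2 (0.063) and with the compared groups alone (0.054). At E12.5 the difference was 0.92 ± 0.16 in Rnf2delta (adjusted p = 4.4e-04) and 0.34 ± 0.17 in controls (0.22), and at E13.5 it was 0.30 ± 0.12 in controls (0.088). The E12.5 control difference was 0.67 on the dimmer probe set (0.010) and 0.51 with the mean of all probe sets (0.034). The E13.5 difference passed with quantile normalization (0.36, adjusted p = 0.035) and with the mean of all probe sets (0.31, adjusted p = 0.044).

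X-linked genes as a whole read higher in females. Over 473 X-linked genes the median female minus male difference was 0.12 and 0.22 in Rnf2delta at E11.5 and E12.5, and 0.10, 0.11 and 0.22 in controls at E11.5, E12.5 and E13.5. Over the 14707 other genes it lay between -0.07 and 0.00. Rbbp7 exceeded 94.1% and 87.9% of X-linked genes in Rnf2delta at E11.5 and E12.5, and 95.8%, 72.7% and 57.9% in controls at E11.5, E12.5 and E13.5. Kdm6a, an X-linked demethylase that removes the mark PRC2 writes, was called in every sex comparison, with 0.85 and 1.34 in Rnf2delta and 0.86, 0.84 and 0.87 in controls. Uty, its Y-linked relative, gave -1.28 and -0.88 in Rnf2delta and -1.03, -1.06 and -1.14 in controls, and passed in each.

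**Figure D4:**
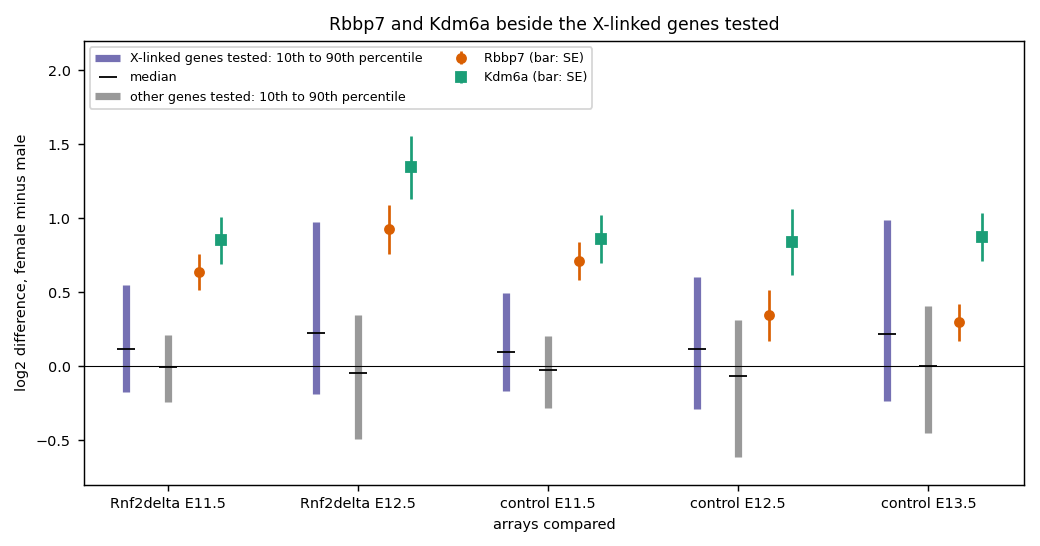
Female minus male log2 difference (y axis) of Rbbp7 and Kdm6a with their SE, beside the median and the 10th to 90th percentile of 473 X-linked and 14707 other genes, for the 5 sex comparisons. Rbbp7 lies above the X-linked range at E11.5, at 0.64 in Rnf2delta and 0.71 in controls. It falls within that range at E12.5 (0.92 in Rnf2delta and 0.34 in controls) and in E13.5 controls (0.30).

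Some genes that act beside PRC2 also passed with stage. At E13.5 against E11.5, 16.4% of all genes were higher and 14.1% lower in females, and 9.24% and 9.6% in males. Of 5 further accessory subunits and inhibitors, 2 rose in control females at E13.5 against E11.5, the PRC2 inhibitor Ezhip by 0.61 and Lcorl, whose product is a PRC2 accessory subunit, by 0.48 (limma adjusted p = 0.0063 and 0.0057), and none passed in males. Among the 3 CBX readers, 1 rose and 1 fell in each sex. Cbx8 gave 1.97 in females and 0.55 in males, and Cbx7 -0.78 and -0.50. Nsd1, which methylates H3K36, rose by 1.07 in females and 1.11 in males. Of 18 genes of other complexes that hold RBBP4 or RBBP7, 2 rose and 2 fell in females, and 2 rose and 6 fell in males. Mta2 of the NuRD complex fell by 0.89 in females (adjusted p = 2.6e-04), and Hat1, the partner of RBBP7 in histone acetylation, rose by 0.46 in males (adjusted p = 0.0084). Of 20 genes of S phase and E2F control, 1 rose and 5 fell in females and 0 rose and 8 fell in males, where E2f3 gave -1.07 in females and Ccne1 -0.75 in males. In females, neither this list nor the other complexes with RBBP4 or RBBP7 passed more often than all genes (30.5%). In males both lists fell more often than all genes did (9.6%).

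Across the 10 group means the members shared a few patterns, which are given as descriptions because the groups share stages, sexes and genotypes. Ezh2 and Rbbp7 ran together most closely (Pearson r = 0.91), then Eed and Mtf2 (0.85) and Eed and Jarid2 (0.80). Ezh1 ran against Jarid2 (-0.80), and Rbbp4 against Phf19 (-0.72). These are the extremes among all pairs of members. The Ezh2 means spanned 0.32, and the arrays did not overlap in 0 of their 9 neighbouring pairs, so its correlations rest on small differences. The genes tested whose group means were most like those of Rbbp7 were Syap1 (0.94), Ttc14 (0.94) and Zwilch (0.94). Those nearest to Ezh1 were Ift80 (0.97), Appl1 (0.97) and Ascl2 (0.96), and those nearest to Ezh2 were Phip (0.96), Sacm1l (0.96) and Jmjd1c (0.95). Eed was most like Tpp1 (0.96), Prr11 (0.96) and Erh (0.95), and Suz12 was most like Ube2d2a (0.93), Tpt1 (0.93) and Ccna2 (0.92).

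In the order of the 10 group means, most neighbours did not differ beyond their spread. Of 9 neighbouring pairs, the arrays did not overlap in 3 for Rbbp7, 3 for Phf19, 1 each for Ezh1, Suz12 and Jarid2, and 0 for the remaining members. Rbbp7 was highest in Rnf2delta E12.5 females (mean 9.26) and then in control E13.5 females (8.90), and lowest in control E11.5 males (7.41). Phf19 was highest in control E13.5 females (5.46), then in Rnf2delta E12.5 females (5.13), and lowest in control E13.5 males (3.14). Suz12 was lowest in control E13.5 females (4.79), apart from the next group, control E13.5 males (5.13). Ezh1 was highest in control E13.5 males (5.99), apart from the next group, control E13.5 females (5.65).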

How the data were processed

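The authors deposited log2 signals of 34760 probe sets on 30 Affymetrix arrays, and R 2.15 and affy 1.36 are named as their tools, per the submitters' processing notes. How background was corrected and probes were summarised is not stated in the sources used here. Array medians lay between 2.52 and 2.66, so the deposited log2 table was used as it stands. Probe sets were named from the platform annotation, with symbols updated through Entrez identifiers to RefSeq (GRCm38.p6). A gene took its probe set with the highest mean, and was kept where at least 3 arrays exceeded their own 40th percentile, which left 15180 of 19937 genes. All groups entered 1 limma fit (limma 3.58.1, R 4.3.3) with 1 mean and 1 weight per group and 20 residual degrees of freedom. Contrasts were two-sided, with Benjamini-Hochberg adjustment over all genes tested and a threshold of 0.05 on the adjusted p, and the fit was tested on simulated data. The SE is that of the fit, and "kept in each alternative run" refers to 14 alternatives and 30 arrays left out in turn, as far as each applies. Members, lists and weights were chosen with earlier results of these data known. The text names every member, Rnf2 and Ring1, up to 4 genes a list that passed, by smallest p, and for 5 members the 3 nearest genes by Pearson correlation of group means. Listed genes without a single-symbol probe set were not analysed here. The number of arrays limits the precision, and scan dates were not used here.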

Additional observations from a re-analysis of the deposited data

Results flagged for a closer look

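Stage changes that differed between the sexes were found for 3 PRC2 subunits in control germ cells, by a test of the difference itself. The E13.5 minus E11.5 change in females minus that in males was 2.06 for Phf19, -0.94 for Mtf2 and -0.68 for Eed on the log2 scale (limma adjusted p = 2.6e-06, 0.0026 and 0.024). The call of Eed was lost in 7 of 24 settings, among them equal weights (0.072) and the mean of all probe sets (0.28), and its dimmer probe set gave 0.063. No genotype difference of a member differed between sexes or stages past the threshold.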

How the results depend on the processing

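Over 230 pairs of member and contrast, 33 were called, and 22 of these kept their call in each alternative run, while 13 uncalled pairs passed in at least 1. With equal weights for all arrays, the genotype comparisons gave 4 calls in place of 2, adding E12.5 females for the same 2 members, Rbbp7 and Phf19. The dimmer probe set of Eed reversed its sign in E13.5 minus E11.5 females (0.11), in E13.5 females minus males (0.012) and in the difference of stage changes between sexes (0.063). Leaving out 1 array at a time gave 2 to 3 genotype calls, 17 to 21 stage calls, 8 to 9 sex calls and 2 to 3 interaction calls, against 2, 19, 9 and 3. For same-numbered Rnf2delta and control arrays, the deviations from their group means correlated at -0.14 to 0.29 across genes. Of these 12 correlations 6 exceeded 0.1, including all 3 pairs of E11.5 males (0.10 to 0.16). In no other stage and sex did all 3 exceed it. E12.5 males gave 0.18, 0.096 and 0.29, E12.5 females 0.059 to 0.093 and E11.5 females -0.14 to 0.15. A cut at 0.1 thus cannot settle in which stage and sex the numbers stand for pairs. As a hint from the data, 10 of 12 Rnf2delta arrays correlated best with their own number. With the replicate block the counts of member calls were 2, 19, 9 and 3. With the replicate block within stage and sex, no member's call changed, and over all genes E11.5 males gave 408 calls against 305 and E12.5 males 320 against 177. Counts over all genes moved more. With equal weights E12.5 females gave 1502 genotype calls against 235, E11.5 females 84 against 153 and E11.5 males 109 against 305. The compared groups alone gave 54, 93 and 150 in the same order. In E12.5 males, 1 weight per array gave 285 against 177, and the E12.5 minus E11.5 step of Rnf2delta males gave 443 against 111. For E13.5 minus E11.5 control males, equal weights gave 1664 against 2859, and for the difference of stage changes 802 against 1557. The 54 low-numbered probe sets without a gene name had array means of 4.51 to 4.72 at E11.5 and 4.57 to 4.98 at E12.5 and E13.5. With this mean as a covariate, E12.5 minus E11.5 gave 1175 against 1544 in control females and 1253 against 2398 in Rnf2delta females. The same step gave 769 against 1115 in control males and 136 against 111 in Rnf2delta males. Female minus male counts with the compared groups alone were 32 against 88 at E11.5 and 1150 against 1750 at E12.5 in controls. Signal over background was not analysed here, so how far a dim probe set can show a change is unknown.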
